A study of Mus musculus with 11 samples.

Results

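Expression of 10 genes of the bone morphogenetic protein (BMP) and activin pathway was examined in maxillary molar tooth germs of mouse embryos at E14.5, the cap stage. The genes were the ligand genes Bmp2, Bmp4, Bmp7 and Inhba, the antagonist genes Fst and Nog, and the target genes Id1, Id2, Id3 and Id4. They were taken by symbol, and all 10 were present among the 16755 genes measured. RNA was sequenced from 3 genotypes on a C57BL/6 background, with 4 libraries of wild type, 4 of Cilk1-/- and 3 of Cilk1-/-;PCS1–MRCS1 △/△, called the compound mutant here. The stated n was 6 for each biological replicate, without saying if this counts tooth germs or embryos. Cilk1-/- mice had lost exon 6 of Cilk1, a kinase of the primary cilium, in all cells through EIIa-Cre, which acts in the early embryo. The compound mutant carried the same Cilk1 deletion together with the homozygous removal of 70 kb that holds oral enhancers of Shh, and there was no group with the enhancer deletion alone. The labels name no treatment and no further allele.

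BMPs bind paired serine/threonine kinase receptors, and the signal reaches the nucleus through Smad1, Smad5 and Smad9 together with Smad4, whereas activins use Smad2 and Smad3. Noggin binds BMPs and follistatin binds mainly activin, and each keeps its ligand from the receptors. In the tooth germ, Bmp4 and Inhba are known as signals of the condensed mesenchyme and Bmp2, Bmp4 and Bmp7 are expressed in the enamel knot, the signaling center of the epithelium. The Id genes are among the best known direct targets of BMP Smads, and Id proteins hold back basic helix-loop-helix factors by taking up their partners, the E proteins, which otherwise bind E-boxes.

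RefSeq promoter windows from 250 bases before to 50 bases after the gene start (GRCm38.p6) were at hand for 5 of the 10 genes, namely Inhba, Bmp4, Id2, Id3 and Id4. The sequences below lie before the RefSeq start and outside of annotated untranslated regions, although the Id2 stretch lies within the GENCODE span of its gene, in an intron of a longer transcript. They are shown because Inhba carried the clearest change and Bmp4 had a lower mean in both mutants, without a call. Id2 and Id4 are shown as the BMP targets among these stretches. Capitals mark the GC-rich BMP Smad motif GGCGCC, the Smad binding element CAGAC, the Gli motif TGGGTGGTC and the E-box CANNTG on either strand, and matches of different motifs were allowed to overlap. The stretches are chr13:16011601-16011850 (+) for Inhba, chr14:46390670-46390919 (−) for Bmp4, chr12:25096254-25096342 (−) for Id2 and chr13:48260866-48261115 (+) for Id4.
Inhba: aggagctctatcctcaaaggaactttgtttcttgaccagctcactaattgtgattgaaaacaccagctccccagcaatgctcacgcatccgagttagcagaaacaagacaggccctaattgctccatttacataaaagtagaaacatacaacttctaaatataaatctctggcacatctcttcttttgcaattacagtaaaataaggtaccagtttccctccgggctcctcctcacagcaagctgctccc
Bmp4: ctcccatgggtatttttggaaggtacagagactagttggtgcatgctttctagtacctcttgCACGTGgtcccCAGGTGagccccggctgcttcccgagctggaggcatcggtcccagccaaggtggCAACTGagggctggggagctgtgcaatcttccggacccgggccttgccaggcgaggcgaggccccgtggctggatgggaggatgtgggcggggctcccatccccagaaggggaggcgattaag
Id2: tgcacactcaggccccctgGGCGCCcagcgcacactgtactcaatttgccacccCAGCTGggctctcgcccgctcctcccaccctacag
Id4: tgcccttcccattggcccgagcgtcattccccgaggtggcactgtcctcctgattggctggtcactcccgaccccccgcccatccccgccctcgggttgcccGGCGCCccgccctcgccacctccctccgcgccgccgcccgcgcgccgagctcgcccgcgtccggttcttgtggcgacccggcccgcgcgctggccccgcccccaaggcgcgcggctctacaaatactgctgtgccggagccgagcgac

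The GC-rich motif began at position −231 in Id2 and at −148 in Id4, counted from the gene start, and 11.9% of 32841 promoter windows of the same length held it. The E-box began at −188, −177 and −123 in Bmp4 and at −196 in Id2, and 72.3% of windows held at least 1. The Id3 window lies in an untranslated region of another annotated transcript, so only the surroundings of its Smad binding elements are shown. These begin at −167 (chr4:136143645-136143669, +) and at −68 (chr4:136143744-136143768, +), the second on the opposite strand, and 49.6% of windows held this element.
Id3 at −167: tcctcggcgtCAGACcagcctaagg
Id3 at −68: acccttggcgGTCTGttttgaataa

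None of the 4 motifs was found in the Inhba window, and the Gli motif, held by 0.253% of windows, was found in none of the 5. GC content was 47.7% in the Inhba window against 64% in Bmp4, 63.3% in Id2, 60% in Id3 and 73.3% in Id4, with a median of 52.7% over all windows. These matches describe letters in a short window and carry no measure of binding.

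The deposited values resemble log2(value + 1), where the value is a length-normalized level, probably FPKM, and all levels and differences below are on this scale unless stated. A few values are negative, such as −0.356 for the bone marker gene Bglap in Cilk1-/- replicate 3, which log2(FPKM + 1) cannot give. The deposited values are thus not plain log2(FPKM + 1), and any further adjustment is not described. Counts were not used here, so the depth per library is unknown. Cilk1, listed under its older symbol Ick, averaged 3.53 ± 0.0751 in wild type (SD, n = 4). It fell to 2.80 ± 0.0661 without Cilk1 (SD, n = 4, limma adjusted p = 0.000224) and to 2.64 ± 0.0317 when the enhancers were deleted as well (SD, n = 3, limma adjusted p = 6.22e-05). Markers of dental epithelium and of dental mesenchyme, 8 genes each, were all detected with a mean of at least 1. Compound mutant replicate 1 stood apart from the other libraries, at −48.5 on the first principal component against −6.63 to 11.2. Markers of other tissues also set the compound mutant apart, as sums of 8 genes on the linear scale. Cartilage markers summed to 724, 67.7 and 54.6 in its replicates 1, 2 and 3, against 27.9 to 43.8 in the other 8 libraries. Neuron markers summed to 233, 57.6 and 85.8, against 41.1 to 49.2 in wild type and 51.2 to 58.7 in Cilk1-/-. Skeletal muscle markers summed to 9.68 to 11.2, below the 11.9 to 61.9 of the other libraries. Bone markers summed to 101, 326 and 177, against 139 to 242 in wild type and 154 to 203 in Cilk1-/-. Replicate 1 thus lay below and replicate 2 above all of those libraries for bone. Dental epithelium markers summed to 570, 794 and 1258, against 945 to 1184 in wild type and 1004 to 1264 in Cilk1-/-. Erythroid markers summed to 1056 in replicate 3, against 2789 to 4101 in the wild-type and Cilk1-/- libraries. The part of these sums in the differences of the compound mutant given below was not tested. Wild-type replicates 1 to 3 and Cilk1-/- replicates 1 to 3 carry library names of a first set in the labels, and the other 5 libraries those of a second set, so the compound mutant occurs in the second set only.

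Within wild type, Id3 had the highest level, followed by Id2, Id1, Bmp4, Inhba, Id4, Fst, Bmp7, Nog and Bmp2. The linear level per length was 175 for Id3 and 3.51 for Bmp2 on average. The wild-type ranges of Bmp4 and Inhba overlapped, as did those of Id4 and Fst, and the other neighbors in this order did not overlap. The levels are those of whole tooth germs, in which fewer cells of a type and less RNA per cell cannot be told apart. Values of every library are given for each gene below and in the plot of values by library.

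**Figure D1:**
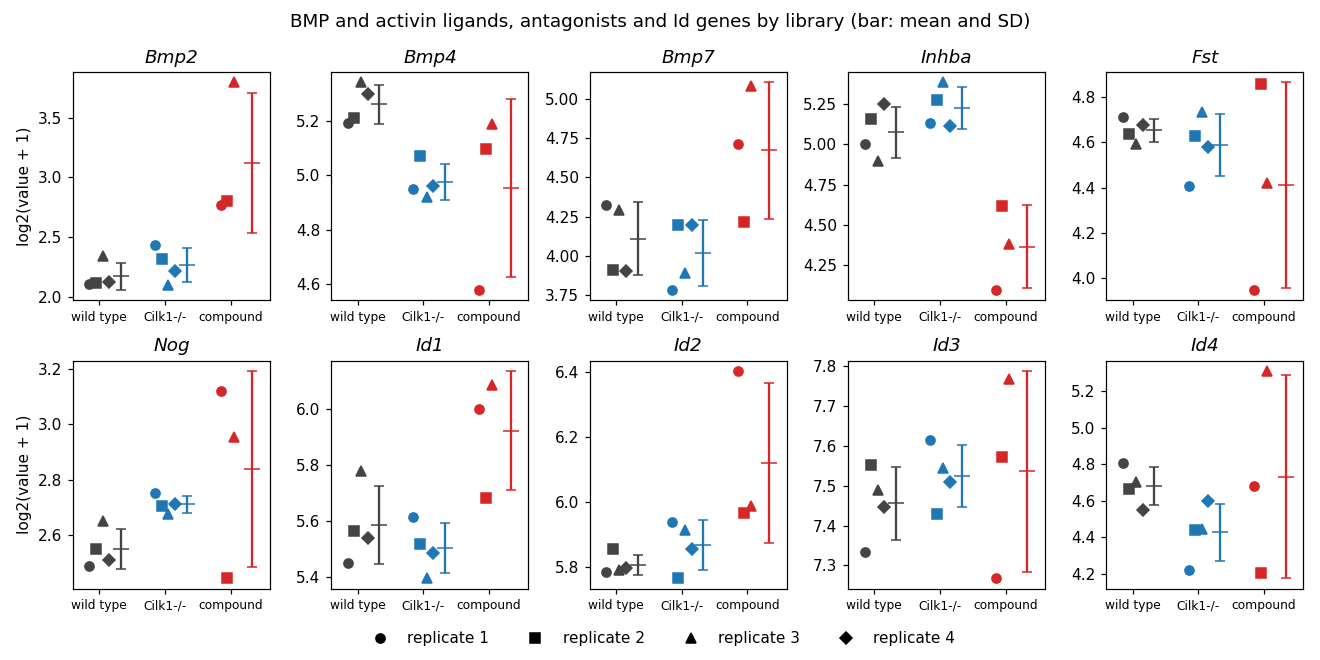
Values of the 10 genes in each library, as log2(value + 1) with a separate vertical scale for each gene. Symbols stand for replicate numbers, and the bar beside each group gives the mean and SD (n = 4 wild type, n = 4 Cilk1-/-, n = 3 compound mutant). The 3 compound mutant libraries lie below all others for Inhba and above all others for Bmp2.

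Inhba encodes the subunit of activin A and was the gene with the clearest change among the ligands. Wild-type libraries had 5.001, 5.15, 4.89 and 5.25, and Cilk1-/- libraries had 5.13, 5.27, 5.38 and 5.11. Compound mutant libraries had 4.10, 4.62 and 4.38. No compound mutant library reached the lowest of the other 8 libraries, whereas wild type and Cilk1-/- overlapped. The level fell by 0.71 (SE 0.123, 95% interval −0.98 to −0.44) in the compound mutant against wild type, a fold of 0.612 with limma adjusted p = 0.0133. Against Cilk1-/- it fell by 0.86 (95% interval −1.13 to −0.59), a fold of 0.552 with limma adjusted p = 0.0101. Cilk1-/- differed from wild type by 0.15 (95% interval −0.10 to 0.40, limma adjusted p = 0.497).

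The decrease of Inhba held its sign in all 23 alternatives of each comparison, but the call did not. Several alternatives change only the threshold, the variance estimate, the genes tested or a genotype outside the comparison. Their sign was fixed in advance. With the replicate number as a block, limma adjusted p was 0.0758 against wild type and 0.114 against Cilk1-/-, and with the library set as a term it was 0.144 and 0.147. Without compound mutant replicate 1 the difference from wild type was −0.58 (limma adjusted p = 0.0237), just short of the minimum fold change, and it was called without each of the other libraries. Within the second library set, the compound mutant mean lay 0.88 below the wild-type library, a difference of −0.88, and 0.75 below the Cilk1-/- library, a difference of −0.75. The 8 dental mesenchyme markers summed to 735, 1003 and 802 in the compound mutant libraries, against 1002 to 1037 in wild type and 957 to 1015 in Cilk1-/-. The sum of replicate 2 was within the wild-type range, and the members of the list went different ways there. Pax9 (38.2), Barx1 (167) and Pdgfra (42.2) were below every wild-type library on the linear scale. Prrx1 (138) and Vim (398) were above every wild-type library, and Lhx6, Lhx8 and Twist1 were within the wild-type range. In Cilk1-/-, Pax9, Barx1 and Twist1 were below wild type in every library and Vim was above it. Ranges did not overlap in that comparison for 20.9% of all genes. The part of mesenchyme content in the lower Inhba level was not tested.

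Bmp2, a BMP ligand gene of the enamel knot, rose in the compound mutant. Its wild-type values were 2.10, 2.12, 2.34 and 2.12, and its Cilk1-/- values were 2.43, 2.32, 2.10 and 2.22. In the compound mutant the values were 2.77, 2.80 and 3.80. All 3 compound mutant libraries lay above every other library, and replicate 3 lay far above the other compound mutant libraries. The difference from wild type was 0.95 (SE 0.212, 95% interval 0.48 to 1.42), a fold of 1.94 with limma adjusted p = 0.0302. The difference from Cilk1-/- was 0.86 (95% interval 0.39 to 1.33, limma adjusted p = 0.0552) and was not called. Between Cilk1-/- and wild type it was 0.097 (95% interval −0.34 to 0.53, limma adjusted p = 0.833).

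The call of Bmp2 against wild type was lost without any of the 4 wild-type libraries, with limma adjusted p from 0.0538 to 0.0869. It was also lost with the replicate block (0.136 as adjusted p in limma) and with the library set as a term (adjusted p = 0.204 in limma). Without compound mutant replicate 3 the difference was 0.61 and was called (limma adjusted p = 0.00987). The 8 enamel knot markers, Shh among them, summed to 67.5, 65.5 and 172.7 in compound mutant replicates 1, 2 and 3, against 52.3 to 84.5 in wild type and 69.6 to 102.5 in Cilk1-/-. The members of this list went different ways. Shh had a linear level of 11.6, 15.3 and 90.2 in the compound mutant libraries, against 17.1 to 35.2 in wild type. Cdkn1a, a cell cycle inhibitor gene, had 37.7, 21.6 and 29.6, above every wild-type library (8.90 to 15.9), as Bmp2 was. The part of enamel knot content in the higher Bmp2 level was not tested.

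Bmp4, the ligand gene with the highest level in wild type, lay below wild type in every library of either mutant. The wild-type libraries had 5.19, 5.21, 5.34 and 5.30, the Cilk1-/- libraries 4.95, 5.07, 4.92 and 4.96, and the compound mutant libraries 4.58, 5.10 and 5.19. The highest compound mutant library and the lowest wild-type library were nearly equal, at 5.188 and 5.193. The difference from wild type was −0.29 in Cilk1-/- (95% interval −0.53 to −0.043, limma adjusted p = 0.174) and −0.31 in the compound mutant (95% interval −0.57 to −0.043, limma adjusted p = 0.139), and neither was called. These comparisons share the wild-type libraries, and the common fit also takes in the spread of the compound mutant. With only wild type and Cilk1-/- fitted, limma adjusted p for the difference of Cilk1-/- from wild type was 0.00752. Without compound mutant replicate 1 it was 0.0150, with the difference at −0.29 in each and short of the minimum fold change. It was 0.291 with the replicate number as a block, 0.242 with the library set as a term and up to 0.339 when leaving out 1 library. Wild-type and Cilk1-/- libraries of the same number are not independent, which the fits without a block ignore. The difference between Cilk1-/- and wild type was −0.27 in the first library set and −0.34 in the second. The mutants themselves differed by −0.020 (95% interval −0.28 to 0.24), compound mutant minus Cilk1-/-.

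Bmp7, another BMP ligand gene of the enamel knot and epithelium, had values of 4.33, 3.91, 4.29 and 3.90 in wild type and of 3.78, 4.20, 3.89 and 4.20 in Cilk1-/-. The compound mutant libraries had 4.71, 4.22 and 5.09. Replicate 2 of the compound mutant lay within the wild-type range, and all 3 lay above Cilk1-/-. The difference was 0.57 against wild type (95% interval 0.13 to 1.0, limma adjusted p = 0.106) and 0.66 against Cilk1-/- (95% interval 0.22 to 1.09, limma adjusted p = 0.0886). Neither was called, and both were called without compound mutant replicate 2 (limma adjusted p = 0.0148 and 0.0182). Between Cilk1-/- and wild type it was −0.091 (95% interval −0.49 to 0.31), with −0.22 in the first library set and 0.29 in the second.

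The antagonist genes were not called in any comparison. Fst, which encodes follistatin, had values of 4.71, 4.64, 4.59 and 4.68 in wild type and of 4.41, 4.63, 4.73 and 4.58 in Cilk1-/-. In the compound mutant it had 3.95, 4.86 and 4.42, so that 1 library lay above all wild-type libraries and the other two below them. The difference from wild type was −0.24 (95% interval −0.61 to 0.12, limma adjusted p = 0.364) in the compound mutant and −0.066 (95% interval −0.41 to 0.27) in Cilk1-/-, and the compound mutant lay at −0.18 (95% interval −0.54 to 0.19) against Cilk1-/-.

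Nog, which encodes noggin, had values of 2.49, 2.55, 2.65 and 2.51 in wild type and of 2.75, 2.70, 2.68 and 2.71 in Cilk1-/-. Every Cilk1-/- library lay above every wild-type library, with a difference of 0.16 (95% interval −0.099 to 0.42, limma adjusted p = 0.475). The compound mutant libraries were spread more widely, at 3.12, 2.44 and 2.95, below wild type in replicate 2 and above it in the other two. Their mean differed by 0.29 from wild type (95% interval 0.0085 to 0.57, limma adjusted p = 0.178) and by 0.13 from Cilk1-/- (95% interval −0.15 to 0.41).

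Among the Id genes, Id1 and Id2 lay higher in the compound mutant and no gene was called. Id1 had 5.45, 5.57, 5.78 and 5.54 in wild type, 5.61, 5.52, 5.39 and 5.48 in Cilk1-/-, and 6.00, 5.68 and 6.09 in the compound mutant. These last values lay above all Cilk1-/- libraries, and replicate 2 lay within the wild-type range. The difference was 0.34 against wild type (95% interval 0.11 to 0.57, limma adjusted p = 0.0723) and 0.42 against Cilk1-/- (95% interval 0.19 to 0.65, limma adjusted p = 0.0527). Id1 is also expressed in vessels, and the 8 endothelium markers summed to 125, 111 and 117 in the compound mutant, against 107 to 132 in wild type. The part of vessel content in the Id1 level was not tested. Between Cilk1-/- and wild type the difference was −0.082 (95% interval −0.29 to 0.13).

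Id2, with the GC-rich motif in the window shown above, had 5.78, 5.85, 5.79 and 5.79 in wild type and 5.94, 5.76, 5.91 and 5.85 in Cilk1-/-. The compound mutant libraries had 6.40, 5.97 and 5.99 and lay above all 8 other libraries. Replicate 1, the library with the highest cartilage and neuron marker sums, was the highest of them. The difference was 0.31 against wild type (95% interval 0.11 to 0.52, limma adjusted p = 0.0700) and 0.25 against Cilk1-/- (95% interval 0.045 to 0.46, limma adjusted p = 0.146). Without compound mutant replicate 1 it was 0.17 against wild type (limma adjusted p = 0.0981). Cilk1-/- differed from wild type by 0.062 (95% interval −0.13 to 0.25).

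Id3, the most abundant of the 10 genes, had 7.33, 7.55, 7.49 and 7.45 in wild type, 7.62, 7.43, 7.54 and 7.51 in Cilk1-/-, and 7.27, 7.57 and 7.77 in the compound mutant. The groups overlapped, and the differences were 0.069 for Cilk1-/- against wild type (95% interval −0.14 to 0.28), 0.080 for the compound mutant against wild type (95% interval −0.15 to 0.31) and 0.011 against Cilk1-/- (95% interval −0.22 to 0.24). Each of these intervals lies inside the minimum fold change of 1.5, which is 0.585 on the log2 scale.

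Id4 had 4.80, 4.67, 4.70 and 4.55 in wild type, 4.22, 4.44, 4.44 and 4.60 in Cilk1-/-, and 4.68, 4.20 and 5.31 in the compound mutant. Its 3 compound mutant libraries covered the widest range of any Id gene, from below the Cilk1-/- group to above wild type. The difference from wild type was −0.26 in Cilk1-/- (95% interval −0.67 to 0.16), with −0.36 in the first library set and 0.048 in the second. In the compound mutant it was 0.049 (95% interval −0.40 to 0.50) against wild type and 0.30 (95% interval −0.14 to 0.75) against Cilk1-/-.

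**Figure D2:**
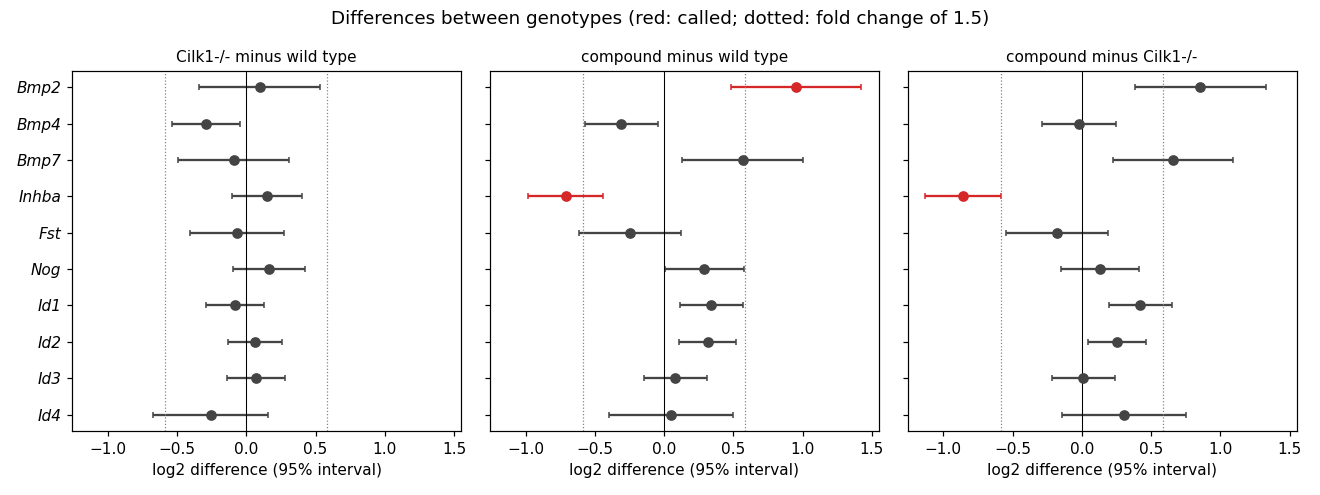
Differences between genotypes for the 10 genes with their 95% intervals from limma, on the log2 scale. Red marks called genes (adjusted p under 0.05 with a minimum fold change of 1.5), the dotted lines mark a fold change of 1.5, and Inhba is called in both comparisons of the compound mutant and Bmp2 only against wild type.

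Between Cilk1-/- and wild type, 0 of the 10 genes were called by limma, against 0.155% of all genes called higher and 0.215% called lower. Bmp4 alone had an unadjusted p under 0.05, against 20.7% of all genes, and with the replicate block the count of calls was again 0, against 0.0239% of all genes. The ranges did not overlap for Nog, higher in Cilk1-/-, and for Bmp4, lower, against 20.9% of all genes. The share of 1 in 10 by unadjusted p and 2 in 10 by range thus lay near or under the background.

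Between the compound mutant and wild type, Bmp2 was called higher and Inhba lower, against 0.615% of all genes called higher and 0.633% called lower. An unadjusted p under 0.05 was found for 7 of the 10 genes, all but Fst, Id3 and Id4, against 26.7% of all genes. The ranges did not overlap for 2 genes that were higher, Bmp2 and Id2, and for 2 that were lower, Bmp4 and Inhba, against 18.0% of all genes. With the replicate block none was called, against 0.155% of all genes. The median difference over the 10 genes was 0.19, beside −0.0016 over all genes.

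Between the compound mutant and Cilk1-/-, Inhba was called lower, against 0.388% of all genes called lower, and none was called higher, against 0.155%. An unadjusted p under 0.05 was found for 5 genes, namely Bmp2, Bmp7, Inhba, Id1 and Id2, against 23.2% of all genes. The ranges of these 5 genes were also the ones that did not overlap, against 17.0% of all genes, and Inhba alone of them was lower. With the replicate block none of the 10 was called, against 0.0119% of all genes.

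**Figure D3:**
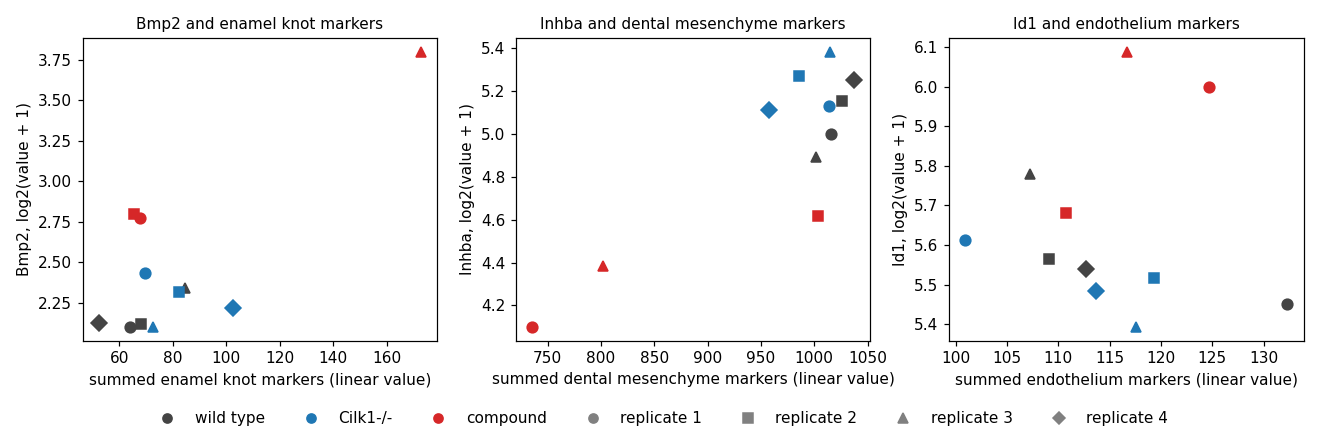
Level of Bmp2, Inhba and Id1 in each library, as log2(value + 1), against the summed linear value of 8 markers of enamel knot, dental mesenchyme and endothelium. Compound mutant replicates 1, 2 and 3 have enamel knot sums of 67.5, 65.5 and 172.7, mesenchyme sums of 735, 1003 and 802, and endothelium sums of 125, 111 and 117.

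Some of the 10 genes varied together over the 11 libraries, which share genotypes, so the following are descriptions. Pearson's r was 0.859 for Bmp2 and Id1, 0.819 for Bmp2 and Bmp7, −0.894 for Inhba and Id1, and −0.908 for Fst and Nog, an antagonist of activin and an antagonist of BMP. Among 13028 genes with a mean of at least 1, Ptprd (r = 0.972) and Ptpre (r = 0.971) followed the pattern of Inhba most closely, N4bp3 (r = 0.974) and Pak1 (r = 0.953) that of Bmp4, and Brms1 (r = 0.952) and Cyb5r4 (r = 0.950) that of Id1. Ptprd and Ptpre encode receptor-type tyrosine phosphatases, and Pak1 encodes a kinase downstream of small GTPases.

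The rest of the pathway was covered with 60 further genes, all of which were measured. In Cilk1-/- against wild type 0 of the 60 were called by limma, against 0.155% of all genes called higher and 0.215% called lower, and 7 had an unadjusted p under 0.05, against 20.7% of all genes. In the compound mutant against wild type 0 were called higher and 2 lower, against 0.615% and 0.633% of all genes, and 18 had an unadjusted p under 0.05, against 26.7% of all genes. Against Cilk1-/- 0 were called, and 15 had an unadjusted p under 0.05, against 23.2% of all genes. The shares by unadjusted p were thus near or under those of all genes. With the replicate block 0 were called in each comparison. Whatever the fold, limma adjusted p was under 0.05 for 6 of the 60 genes in the compound mutant against wild type, beside 1102 of 16755 genes. Against Cilk1-/- this held for 3 of the 60, beside 558 of all genes. The median difference over the 60 genes was 0.036 in the compound mutant against wild type. Sostdc1, an antagonist of BMP and Wnt and a known Hedgehog target in the tooth, was not in these lists.

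The 2 called genes, Chrdl1 and Sost, encode secreted antagonists. Chrdl1, a relative of the BMP antagonist chordin, had 2.94, 2.97, 2.68 and 3.09 in wild type, 2.93, 2.98, 3.19 and 2.80 in Cilk1-/-, and 2.47, 2.47 and 1.63 in the compound mutant, all 3 below the other libraries. It fell by 0.73 against wild type (limma adjusted p = 0.0493). Sost, which encodes sclerostin, an inhibitor of Wnt co-receptors related to BMP antagonists, was low throughout, with 0.68, 0.81, 1.11 and 1.12 in wild type, 0.56, 0.56, 0.18 and 0.12 in Cilk1-/-, and 0.28, 0.48 and 0.026 in the compound mutant. It fell by 0.67 against wild type (limma adjusted p = 0.0357), and in Cilk1-/- it lay below every wild-type library with a difference of −0.58 (limma adjusted p = 0.0638).

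The calls of these antagonists were close to the threshold, and with the replicate block limma adjusted p was 0.162 for Chrdl1 and 0.157 for Sost. Leaving out each library in turn, Chrdl1 was called in 2 of 11 fits (without compound mutant replicates 1 or 2) and Sost in 6, being lost without wild-type replicates 2, 3 or 4 and without compound mutant replicates 1 or 3. Twsg1, which encodes a BMP-binding modulator and had the lowest adjusted p of the 60 genes, differed by −0.35 from wild type in the compound mutant (limma adjusted p = 0.00911), below the fold minimum, and by −0.19 in Cilk1-/- (limma adjusted p = 0.0772). Chrdl2, another chordin relative at a low level, differed by 0.21 between the compound mutant and Cilk1-/- (limma adjusted p = 0.0318), also below the fold minimum. Limma adjusted p with the replicate block was 0.107 for Twsg1 in the compound mutant against wild type and 0.227 for this difference of Chrdl2. None of the other antagonist genes on this list of 14, such as Chrd, was called.

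Of the 13 receptor and co-receptor genes 0 were called. Eng, which encodes the co-receptor endoglin of endothelium, differed by 0.31 from wild type (limma adjusted p = 0.0155) and by 0.34 from Cilk1-/- (limma adjusted p = 0.0145) in the compound mutant, below the fold minimum. Limma adjusted p for Eng with the replicate block was 0.127 and 0.178 in these comparisons. The summed endothelium markers are given beside Id1, and their part was not tested. Acvr1b, an activin type I receptor gene, differed by 0.16 in Cilk1-/- against wild type (limma adjusted p = 0.214), and Rgma, a BMP co-receptor gene, by −0.19 (limma adjusted p = 0.313). Neo1, which encodes the receptor neogenin that binds these co-receptors, differed by −0.17 in the compound mutant against wild type (limma adjusted p = 0.0849).

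Of the 10 Smad and Smurf genes 0 were called. Smad6, the inhibitory Smad that BMP signaling induces, differed by 0.35 in the compound mutant against wild type (limma adjusted p = 0.0299), below the fold minimum, and by 0.24 against Cilk1-/- (limma adjusted p = 0.104). Limma adjusted p for Smad6 with the replicate block was 0.155 and 0.302 in these comparisons. Smad2, a transducer of activin, differed by −0.17 (limma adjusted p = 0.0799) and −0.16 (limma adjusted p = 0.121) in the same comparisons. Smad4, the shared partner, differed by −0.054 in Cilk1-/- against wild type (limma adjusted p = 0.505).

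The 12 other ligand genes and the 3 E protein genes held no call. Gdf10, a divergent member of the BMP family, was spread widely in the compound mutant, from 3.31 to 5.41 against 2.64 to 3.18 in wild type, with a difference of 1.11 (limma adjusted p = 0.129), and it ranged from 3.27 to 3.83 in Cilk1-/- with a difference of 0.66 (limma adjusted p = 0.369). Inha, the inhibin subunit gene, differed by 0.25 in Cilk1-/- against wild type (limma adjusted p = 0.0629), and Bmp8b by 0.33 between the compound mutant and Cilk1-/- (limma adjusted p = 0.235). Tcf3, an E protein gene, lay below wild type in every mutant library, with −0.18 in Cilk1-/- (limma adjusted p = 0.127) and −0.21 in the compound mutant (limma adjusted p = 0.0775). Its highest compound mutant library and lowest wild-type library were nearly equal, at 6.553 and 6.555. Ranges did not overlap with wild type for 20.9% of all genes in Cilk1-/- and 18.0% in the compound mutant. Tcf12, another E protein gene, differed by −0.16 in the compound mutant against wild type (limma adjusted p = 0.181).

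Of 8 other BMP-responsive genes 0 were called. Atoh8, a BMP target gene that encodes a basic helix-loop-helix factor, differed by 0.30 in the compound mutant against wild type (limma adjusted p = 0.0238) and by 0.39 against Cilk1-/- (limma adjusted p = 0.0137), below the fold minimum. Limma adjusted p for Atoh8 with the replicate block was 0.163 and 0.182 in these comparisons. Dlx5, a homeobox gene, differed by 0.71 from wild type (limma adjusted p = 0.149). Gata2 differed by 1.47 from Cilk1-/- (limma adjusted p = 0.201), with compound mutant libraries from 1.33 to 4.71. In Cilk1-/- against wild type the lowest p values of this list belonged to the homeobox genes Dlx3, with −0.37 (limma adjusted p = 0.367), and Msx2, with 0.54 (limma adjusted p = 0.394).

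**Figure D4:**
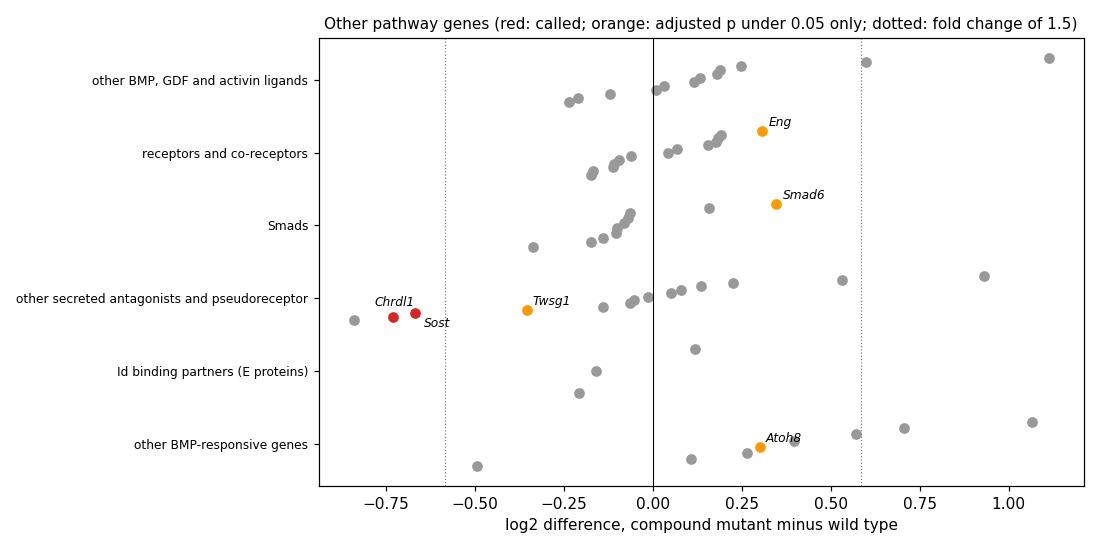
Differences between the compound mutant and wild type for the 60 other pathway genes by list, on the log2 scale. Each point is 1 gene, red marks the 2 called genes Chrdl1 and Sost, orange marks genes with an adjusted p under 0.05 and a smaller fold change, and the dotted lines mark a fold change of 1.5.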

How the data were processed

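The authors mapped poly-A RNA reads to mm10 with HISAT2 2.0.5, counted them per gene with featureCounts 1.5.0-p3 and calculated FPKM. The deposited log2 values resemble log2(FPKM + 1), but the negative ones among them show a further step that is not described. Values per gene can be compared only as far as this scale holds. Negative values were not counted in the marker sums. Genotypes came from the labels. Differences were tested on the deposited log2 values with limma 3.58.1 (lmFit, eBayes with trend and robust) in R 4.3.3, in a single fit of 11 libraries and 16755 genes with Benjamini-Hochberg adjustment over all genes, and a call needed an adjusted p under 0.05 together with a 1.5-fold change. The study used edgeR on counts, which could not be applied to log2 values. The paper calls the replicates biological, with n = 6 each, but does not say if they came from separate litters. The p-values measure the spread between these libraries. The genes, lists and tests were chosen with earlier results of these data known. Besides the 10 genes, those named are called genes and the 2 with the lowest unadjusted p of each list and comparison, and the 2 most correlated genes of Bmp4, Inhba and Id1. Wild-type and Cilk1-/- libraries of the same number deviated from their group means with correlations of −0.741, −0.892, −0.848 and −0.792 over all genes, so they are not independent. For compound mutant libraries the same correlations were 0.142, −0.0379 and 0.256 with wild type and 0.0303, 0.0392 and −0.117 with Cilk1-/-. The replicate block thus joins the compound mutant to the other groups by number only. Values with this block stand beside the calls that it changes. Alternatives were other scalings, pseudocounts, filters, thresholds and terms and leaving out each library. Gene positions are from GENCODE vM21 (GRCm38). Beyond the 60 pathway genes, 1 gene of the original list is not reported here. Protein sequences and the promoters of Bmp2, Bmp7, Fst, Nog and Id1 were not used here. Plots were drawn with matplotlib 3.10.9.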

Additional observations from a re-analysis of the deposited data

Results flagged for a closer look

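In 2 of 22 groups of 4 libraries, a library lay farther from the others than Dixon's 95% critical value allows, and chance alone gives this in about 1 in 20 groups. Bmp2 in wild-type replicate 3 was at 2.34, above the other wild-type libraries, and without that library the compound mutant lay 1.01 above wild type (limma adjusted p = 0.0538). Id2 in wild-type replicate 2 was at 5.85, above the other wild-type libraries by less than the spread of the Cilk1-/- group.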

How the results depend on the processing

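Of the differences of the 10 genes under the alternatives, 648 kept their direction and side of the threshold, 18 lost a call, 7 gained a call and 17 turned their sign. Several alternatives leave the difference itself unchanged, so its direction could not turn there. With the replicate number as a block, with the compound mutant placed in pair 4 of the replicate block, with the library set as a term and with only the 2 genotypes compared, 0 of the 10 genes were called in the compound mutant against wild type (2 in the report) and 0 against Cilk1-/- (1 in the report), and of the 60 pathway genes 0 in place of 2 against wild type. The blocks cost degrees of freedom, and the cause of the lost calls was not tested otherwise. Limma adjusted p for Inhba was 0.0818 and 0.0866 with only the 2 genotypes compared, and 0.525 and 0.809 with the block in pair 4. The compound mutant replicate 2 alone, chosen after seeing the data, called 1 of the 10 genes against wild type (Bmp2), with Inhba at −0.46 (limma adjusted p = 0.0976), and 1 pathway gene in Cilk1-/- and 3 against Cilk1-/-. Against Cilk1-/-, 3 of the 10 genes were called at an unadjusted p and 2 with a pseudocount of 0.1. Of the pathway genes, 5 were called against wild type at an unadjusted p, 6 without a fold minimum and 1 each with eBayes without trend and robust, with genes of a mean of at least 1 and with a pseudocount of 0.1, and against Cilk1-/- 3 were called at an unadjusted p, 3 without a fold minimum and 1 each with a pseudocount of 0.1, quantile normalization and median centring. In Cilk1-/- against wild type Gdf10 made 1 call with only these 2 genotypes.

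Leaving out each library in turn, the calls among the 10 genes in the compound mutant ranged from 1 to 3 against wild type and from 1 to 3 against Cilk1-/-. Those among the pathway genes ranged from 0 to 1 in Cilk1-/-, from 0 to 5 in the compound mutant against wild type and from 0 to 3 against Cilk1-/-. Signs turned only for differences that were not called, the largest being Id4 against Cilk1-/- (0.30) and Nog against wild type (0.29). In the compound mutant against wild type these were, with replicate 2 alone, Fst (0.21), Nog (−0.11) and Id4 (−0.48), and, leaving out libraries, Id3 (−0.036 to 0.21) and Id4 (−0.24 to 0.31). Against Cilk1-/- they were, with replicate 2 alone, Bmp4 (0.12), Fst (0.27), Nog (−0.27) and Id4 (−0.22), with quantile normalization Id3 (−0.015), and, leaving out libraries, Bmp4 (−0.14 to 0.17), Fst (−0.40 to 0.054), Nog (−0.013 to 0.33) and Id3 (−0.10 to 0.15). Id3 turned against wild type without compound mutant replicate 3. Depth is unknown, so precision rests on 3 or 4 libraries a group.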
